A study of Mus musculus with 16 samples.

Results

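Livers of mice on the intermittent diet (INT) were compared with livers of the lighter mice fed ad libitum (light AL), 8 of the 16 arrays of the series. All mice were male C57BL/6J, entered the diets at 9 weeks of age and were killed at 12 months. INT mice had the medium-fat feed ad libitum in 1 week and a 40% energy restriction in the next, and were killed in an ad libitum week. The 4 INT livers comprised all INT arrays, 2 of high and 2 of low body weight class. The 4 light AL livers were those of low body weight class given either control feed (C, 2 arrays) or medium-fat feed, in which fat supplied 25% of the energy (MF, 2 arrays). In each of these 4 pairs 1 mouse had received the PPARα agonist WY14,643 (Wy, 160 mg/kg) and 1 the carrier alone (mock). Every mouse was fasted for 4 h before the gavage and for the 6 h between gavage and death, so all livers, mock included, came from fasted animals. The remaining 8 arrays, high body weight C and MF mice (heavy AL) and mice on a daily 30% restriction (CR), each with 4 arrays split in the same way, were used only to show where INT livers differ. Body weight classes were set within a diet and the labels give no weights. Arrays are named by weight class or diet and treatment, such as low INT mock or light MF Wy.

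Weekly alternation of restriction and free feeding keeps body weight below that of mice with constant access to food. The comparison with light AL mice therefore asks whether an INT liver differs from the liver of an ad libitum-fed mouse that stayed light. In the fasted liver, glycogen is broken down, new glucose is made from amino acids, fatty acids are oxidised under control of the nuclear receptor PPARα, and the lipogenic programme driven by insulin and SREBP1c is low. Refeeding after restriction reverses this balance and raises lipogenic enzymes. Excess fat is held in lipid droplets, whose coat proteins and remodelling proteins increase in fatty liver.

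Each array is 1 liver, and values are log2 intensities. Array medians over the 14275 genes tested lay between 7.07 and 7.21, and the smallest distance between any 2 arrays, as root-mean-square (RMS) difference, was 0.202 log2, so that no array duplicated another. Hepatocyte markers (Alb, Apoa1, Ttr, Serpina1c and Apob, 5 of 5 tested) summed to 15.45 to 15.49 log2 in INT livers and 15.43 to 15.48 in light AL livers. The names of both high INT arrays begin with another array code than those of the other 14 arrays. The labels do not say what the code stands for. It was treated here as a batch, and high body weight and array code cannot be told apart within INT. In whole liver, fewer cells of a type and less RNA per cell cannot be told apart either.

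As whole profiles, INT livers lay near light AL livers. Over the tested genes, an INT array and a light AL array of the same treatment differed by 0.212 to 0.256 log2 (RMS, 8 pairs, median 0.231). The distance was 0.283 to 0.405 to heavy AL arrays (median 0.330) and 0.311 to 0.406 to CR arrays (median 0.366). All 4 INT arrays were nearer to both of their light AL arrays than to any heavy AL or CR array. They were also nearer to both light AL arrays than to the INT array of the other weight class, which was 0.240 away in mock mice and 0.272 in Wy mice. The light C and light MF arrays were 0.202 apart in both treatments. These distances are a description without a test.

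**Figure D1:**
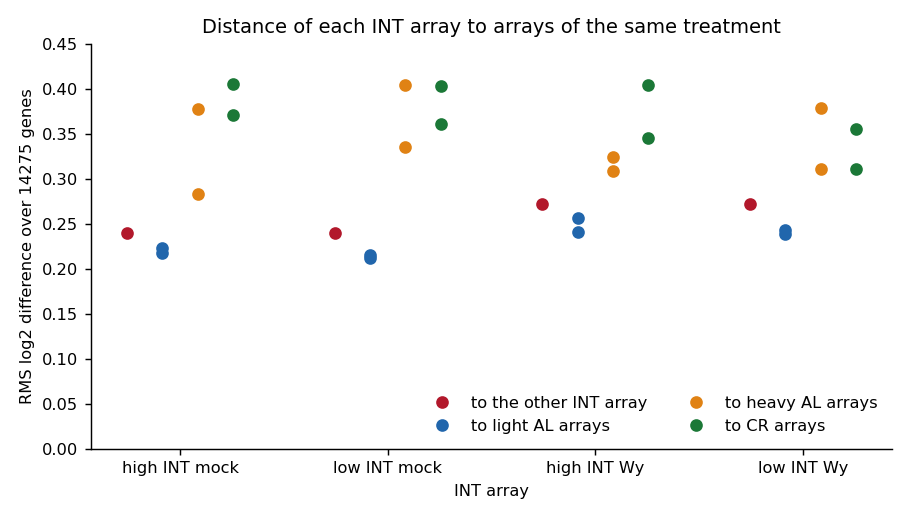
RMS log2 difference over 14275 genes between each INT array and the arrays of the same treatment, with 1 point per array compared. The light AL points lie at 0.212 to 0.256, below every heavy AL and CR point.

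In the test of single genes none of 14275 was called between INT and light AL livers (0%), with limma, treatment as a term and an adjusted p under 0.05. The lowest adjusted p was 0.581. At an unadjusted p under 0.05 there were 689 genes (4.83%), with 328 above (2.30%) and 361 below (2.53%) the light AL level. The same 4 INT arrays differed from 4 heavy AL arrays in 1370 genes (9.60%), with 587 higher (4.11%) and 783 lower (5.49%), and from 4 CR arrays in 1648 genes (11.5%), with 923 higher (6.47%) and 725 lower (5.08%), in a fit of all 16 arrays. In that fit INT and light AL again differed in 0 genes, with 710 at an unadjusted p under 0.05. These 3 comparisons share the INT arrays. The INT minus heavy AL count was 619 without the heavy MF mock array, and the counts were 905 against heavy AL and 827 against CR on the 14 arrays of the first array code alone. Of the INT minus CR calls, 712 of 1670 were higher once array medians had been set equal.

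The absence of calls leaves room for differences of limited size. The 95% confidence interval of INT minus light AL lay within 2-fold in either direction for 14187 genes (99.4%). For 13513 genes it lay within 0.5 log2. A fitted difference of 0.5 log2 or more was found in 70 genes against light AL (0.490%), 666 against heavy AL (4.67%) and 725 against CR (5.08%). A difference of 1 log2 or more was found in 5, 112 and 172 genes in the same order. A p above the threshold does not show that a gene was at the same level in both groups.

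**Figure D2:**
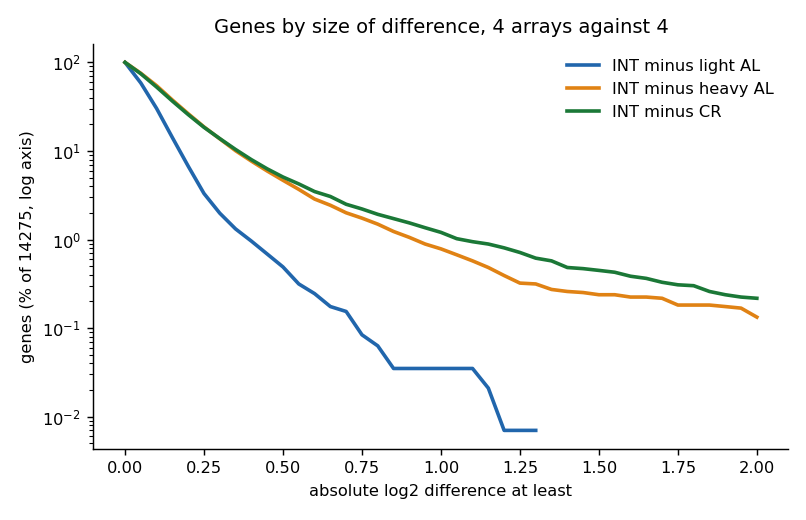
Share of the 14275 tested genes (log axis) whose absolute log2 difference reaches the value on the x axis, for INT minus light AL, INT minus heavy AL and INT minus CR. At 0.5 log2 the shares are 0.490%, 4.67% and 5.08%.

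The genes with the smallest p were described on each side of the light AL level, 8 below and 8 above it, and none of these 16 was called. Got1, the cytosolic aspartate aminotransferase (transcript cluster 10467842), was at 11.40 and 11.58 in high and low INT mock livers and 10.87 and 10.80 in the Wy livers. In light AL livers it was at 12.20 (C) and 12.01 (MF) in mock mice and 11.73 and 11.27 in Wy mice. All INT values lay below both light AL values of the same treatment, and the difference was -0.64 ± 0.10 log2 (SE), or 1.56-fold lower (interval -0.87 to -0.40, adjusted p = 0.581 with limma). Against CR, where Got1 reached 11.74 to 12.72, it was called (-1.21 ± 0.22, adjusted p = 0.00267 with limma). Against heavy AL Got1 was not called. Cyp46a1, which hydroxylates cholesterol, was at 6.88 and 7.01 in INT mock and 6.93 and 6.83 in INT Wy livers, against 7.24 and 7.26 in light AL mock and 7.50 and 7.49 in light AL Wy livers (-0.46 ± 0.08). The groups did not overlap, and heavy AL livers were higher still at 7.68 to 8.58, a called difference (INT minus heavy AL -1.22 ± 0.12, adjusted p = 0.000121). The sulfotransferase Sult1c2 was at 6.91 and 7.11 in INT mock and 6.39 and 6.19 in INT Wy livers, against 7.33 and 7.41 in light AL mock and 7.21 and 7.15 in light AL Wy livers (-0.63 ± 0.11). It was also below heavy AL (-1.04 ± 0.15, adjusted p = 0.00136).

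Of the other genes below the light AL level, Atp6v0d2, a subunit of the vacuolar proton pump, was at 6.41 and 5.33 in INT mock and 4.83 and 4.82 in INT Wy livers, against 7.02 and 6.52 in light AL mock and 6.31 and 6.04 in light AL Wy livers. The high INT mock liver came closest to the light AL values, and the difference was -1.13 ± 0.22. Without that array Atp6v0d2 was called (-1.39, adjusted p = 0.0437 with limma). It was called against heavy AL (-1.15 ± 0.21) and CR (-1.36 ± 0.21) with all arrays. The carboxypeptidase Cpm (-0.54 ± 0.09), the coiled-coil gene Cabcoco1 (-0.56 ± 0.10), Ethe1 of the mitochondrial sulfide oxidation pathway (-0.31 ± 0.06), and Cnpy3, a chaperone of Toll-like receptors (-0.35 ± 0.08), completed the 8 smallest p on this side. All 8 lay below the light AL mean of their treatment in 4 of 4 INT livers. The 8 were chosen by p in this same comparison, so that agreement is no separate support.

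Of the 8 genes above the light AL level, Slfn8, a Schlafen family member, was at 5.58 and 5.73 in INT mock and 5.75 and 5.59 in INT Wy livers, against 5.18 and 5.24 in light AL mock and 5.29 and 5.27 in light AL Wy livers (0.42 ± 0.07). Irf1, the interferon-response transcription factor, was at 8.47 and 8.52 in INT mock and 7.72 and 7.83 in INT Wy livers, against 8.21 and 8.17 in light AL mock and 7.43 and 7.39 in light AL Wy livers (0.34 ± 0.06). Dgkh, a diacylglycerol kinase, was at 7.04 and 6.80 in INT mock and 8.19 and 8.37 in INT Wy livers, against 6.65 and 6.43 in light AL mock and 7.69 and 7.74 in light AL Wy livers (0.47 ± 0.09). For each of these 3 genes the groups did not overlap within a treatment. Pcp4l1 had the widest difference of the 8 at 0.82 ± 0.17, 1.77-fold, and was called without the light MF Wy array (1.02, adjusted p = 0.0234 with limma). Zfp830 (0.33 ± 0.06), Rims2 (0.55 ± 0.10), the long non-coding RNA Dleu2 (0.42 ± 0.08) and Cfap77 (0.33 ± 0.07) completed the set. Rims2 lay under the intensity threshold of the filter (log2 4.32) on all 4 light AL arrays. Adjusted p of the 16 genes ran from 0.581 to 0.953. Complete separation of INT from light AL within both treatments occurred in 815 genes (5.71%), 388 above (2.72%) and 427 below (2.99%).

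**Figure D3:**
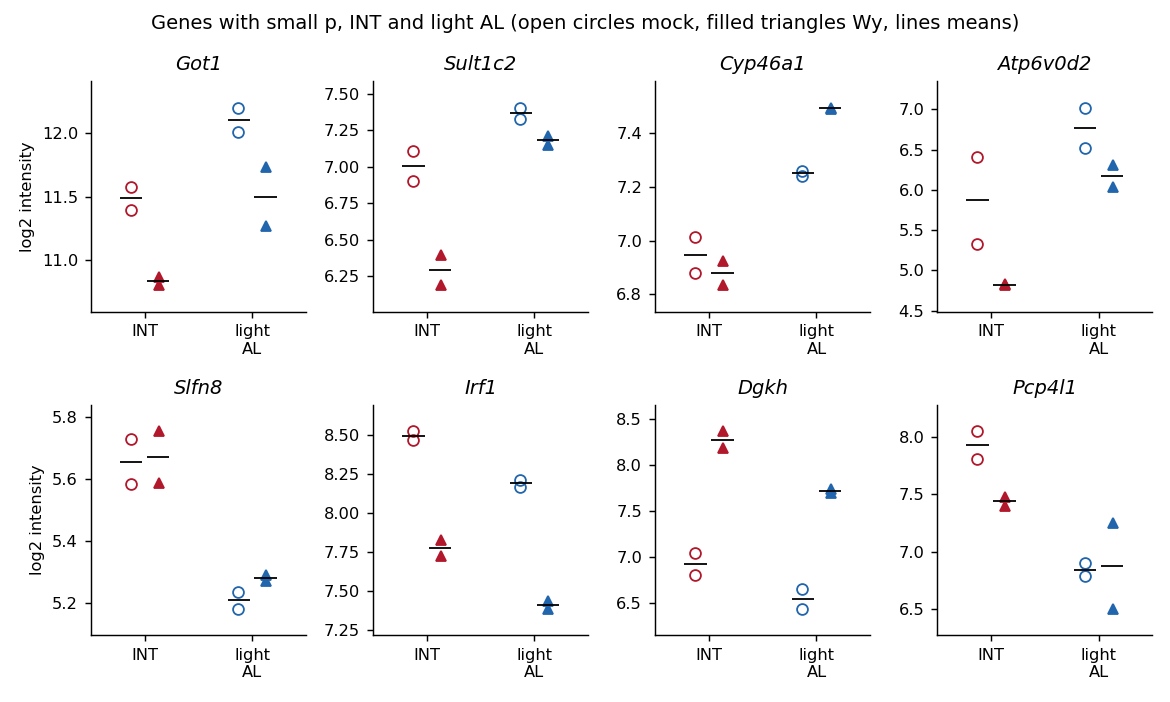
Log2 intensity of 8 of the genes with the smallest p, in INT (left) and light AL (right) livers, with open circles for mock, filled triangles for Wy and lines for means of 2 arrays. Within each treatment every INT point of Got1, Sult1c2, Cyp46a1 and Atp6v0d2 lies below, and of Slfn8, Irf1, Dgkh and Pcp4l1 above, the light AL points.

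Genes at least 2-fold apart were few and varied among livers. Csad, which makes the taurine precursor hypotaurine, was at 9.46 and 10.75 in high and low INT mock and 10.16 and 10.95 in high and low INT Wy livers. In light AL livers it was at 8.09 (C) and 9.25 (MF) in mock and 9.16 and 10.05 in Wy mice, and within light AL each MF liver lay above the C liver of its treatment. Within each treatment both INT livers lay above both light AL livers, with low INT highest (1.19 ± 0.36 for INT minus light AL, adjusted p = 0.953). Chrna4, an acetylcholine receptor subunit named after its values were seen, was at 7.03 and 5.22 in INT mock and 7.51 and 6.43 in INT Wy livers, against 8.71 and 7.60 in light AL mock and 8.50 and 6.67 in light AL Wy livers (-1.32 ± 0.54). Its groups overlapped among Wy mice. The other 3 such genes were Atp6v0d2, Cidea and an immunoglobulin variable segment.

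Among gene lists, lipogenesis stood on the lower side. Of 23 tested genes of fatty acid synthesis and NADPH supply, 21 lay below the light AL level, with a median of -0.26 log2 and a range of -0.77 to 0.01. Over all tested genes 50.2% lay above it, with a median of 0.00033. Of the 23, 7 were below it at an unadjusted p under 0.05, against 2.53% of all genes, and 0 were called. Srebf1, which encodes the lipogenic transcription factor SREBP1, was at 9.70 and 9.43 in INT mock and 9.34 and 9.14 in INT Wy livers, against 9.72 and 10.06 in light AL mock and 9.95 and 9.51 in light AL Wy livers (-0.41 ± 0.12, interval -0.68 to -0.13). Pklr, liver pyruvate kinase, had a difference of -0.36 ± 0.10, the elongase Elovl6 of -0.49 ± 0.18 and the NADPH-producing enzyme Pgd of -0.30 ± 0.11. The median was -0.37 against light C and -0.07 against light MF. Leaving out 1 array at a time moved it between -0.34 and -0.16, the smallest size without the light C Wy array. In CR livers lipogenic genes were far higher than in INT livers, with 13 of 23 called lower in INT (all genes, 5.08% lower), for instance Elovl6 (-1.63 ± 0.18, adjusted p = 6.73e-05) and Pgd (-1.63 ± 0.13, adjusted p = 3.57e-06).

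Of 20 tested cholesterol synthesis genes 14 lay above the light AL level and the median was 0.13, which was -0.08 in mock and 0.25 in Wy livers. Srebf2, the sterol-sensing factor of the pathway, had a difference of 0.26 ± 0.10, and the last enzyme, Dhcr7, one of -0.21 ± 0.09. Cyp51 (0.32 ± 0.18) and Mvd (0.36 ± 0.24) had the next smallest p. The median was 0.40 for low INT and -0.09 for high INT livers, each against light AL, and -0.04 for INT without the low INT Wy array. In low INT livers 12 of the 20 lay above light AL at an unadjusted p under 0.05 (all genes, 2.48% above). Against CR 13 of the 20 were lower in INT (all genes, 5.08% lower), with a median of -0.69, among them Dhcr7 (-0.90 ± 0.09) and Mvd (-1.02 ± 0.24), the call of Mvd being lost on the arrays of the first code alone (adjusted p = 0.129). The count of 13 was 6 on the arrays of the first code alone and 8 without the high CR mock or the high INT mock array.

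Genes of fatty acid oxidation and ketogenesis lay on the higher side by small amounts. Of 22 tested, 21 were above the light AL level, with a median of 0.12 and a highest value of 0.30. Of these, 3 passed an unadjusted p under 0.05 (all genes, 2.30% above) and 4 separated completely from light AL within both treatments (all genes, 2.72%). Hadhb, the beta subunit of the mitochondrial trifunctional protein, was at 10.86 and 10.94 in INT mock and 11.28 and 11.46 in INT Wy livers, against 10.65 and 10.60 in light AL mock and 11.21 and 11.27 in light AL Wy livers (0.20 ± 0.07). The enoyl-CoA isomerases Eci2 (0.17 ± 0.07) and Eci1 (0.18 ± 0.08) and the peroxisomal enzyme Ehhadh (0.30 ± 0.13) followed. The list median was 0.18 within mock livers and 0.02 within Wy livers. It was 0.08 against heavy AL.

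Other PPARα targets showed the same split by treatment, most plainly Cyp4a14, a fatty acid omega-hydroxylase. It was at 12.72 and 12.70 in high and low INT mock livers, against 11.94 (C) and 11.64 (MF) in light AL mock livers. With Wy it was at 13.06 and 13.15 in INT and 13.03 and 13.15 in light AL livers, so that the groups separated in mock and overlapped in Wy mice. These Wy values lay near the highest value on any array (13.7). Heavy AL mock livers (12.51 and 12.56) and CR mock livers (12.85 and 12.82) were near the INT mock livers. Over both treatments the difference was 0.47 ± 0.17. Vnn1, a pantetheinase (0.31 ± 0.13), Cyp4a31 (0.29 ± 0.14) and the fatty acid transporter Slc27a1 (0.44 ± 0.22) were next. Of the 24 tested genes 16 lay above light AL, with a median of 0.07, which was 0.16 in mock and -0.03 in Wy livers. The receptor gene itself, Ppara, was at 11.26 to 11.53 in INT and 11.28 to 11.55 in light AL livers (-0.06 ± 0.09, interval -0.25 to 0.14).

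Lipid droplet genes were near the light AL level, apart from Cidea, which promotes the fusion and enlargement of droplets. Of 22 tested, 9 lay above and 13 below light AL, with a median of -0.01. Cidea was at 4.08 and 3.99 in INT mock and 5.47 (high) and 4.00 (low) in INT Wy livers, against 4.57 and 4.41 in light AL mock and 6.36 and 6.70 in light AL Wy livers. The INT values lay below the light AL values in both treatments, but 3 of the 4 were under the intensity threshold of the filter (-1.12 ± 0.33, adjusted p = 0.953). In heavy AL livers Cidea reached 7.81 to 9.86, and INT minus heavy AL was -4.57 ± 0.37 (adjusted p = 1.44e-05), with only 1 of the 4 INT values above that threshold. Mgll, monoacylglycerol lipase (0.18 ± 0.10), Dgat1 of triglyceride synthesis (-0.13 ± 0.08) and the coat protein Plin3 (-0.19 ± 0.12) followed in order of p. Against heavy AL 6 of the 22 were lower in INT (all genes, 5.49% lower), Plin3 included (-0.90 ± 0.14).

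Glycogen genes lay mostly below the light AL level, with 10 of 13 on that side, a median of -0.16, 5 at an unadjusted p under 0.05 (all genes, 2.53%) and 0 called. Ugp2, which makes the UDP-glucose for glycogen, was at 10.60 and 10.49 in INT mock and 10.34 and 9.87 in INT Wy livers, against 10.99 and 10.82 in light AL mock and 10.55 and 10.35 in light AL Wy livers (-0.35 ± 0.11). The glucose 6-phosphate transporter Slc37a4 (-0.30 ± 0.10), the branching enzyme Gbe1 (-0.26 ± 0.09) and the phosphorylase kinase subunit Phka2 (-0.23 ± 0.09) were next. Gbe1 was called lower in INT than in heavy AL (-0.48 ± 0.08) and CR livers (-0.54 ± 0.08). The list median moved between -0.19 and -0.03 when 1 array was left out, the smallest size without the high INT Wy array. Among 20 tested genes that make glucose or degrade amino acids, 16 lay below light AL (median -0.12, which was 0.01 in mock and -0.19 in Wy livers), with Got1, ornithine aminotransferase Oat (-0.34 ± 0.14), the coactivator Ppargc1a (-0.17 ± 0.08) and proline dehydrogenase Prodh (-0.36 ± 0.16) first by p. Ppargc1a was called lower than in CR livers (-1.71 ± 0.22, adjusted p = 0.000198).

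Sex-patterned hepatocyte genes, which follow the pattern of growth hormone release, were near the light AL level in INT livers and far from the CR level. Of 23 male-biased genes 14 lay above light AL, with a median of 0.02, and 0 were called, while 19 were higher in INT than in CR livers (median 1.08, all genes 6.47% higher). Cyp7b1, an oxysterol hydroxylase, was at 11.47 and 11.84 in INT mock and 10.86 and 11.23 in INT Wy livers, against 11.19 and 11.35 in light AL mock and 10.50 and 10.61 in light AL Wy livers (0.44 ± 0.11). In CR livers Cyp7b1 was at 8.80 to 9.63, 2.12 ± 0.22 log2 below INT (adjusted p = 3.65e-05), and it was below INT in heavy AL livers too (1.44 ± 0.22). The anion transporter Slco1a1 differed from light AL by 0.17 ± 0.10 and from CR by 4.73 ± 0.79, the glutathione transferase Gstp1 from light AL by 0.25 ± 0.13 and Selenbp2 by 0.12 ± 0.07. Among 13 female-biased genes the median against light AL was -0.01. Cyp2b13 was under the filter's intensity threshold in all 4 INT (3.39 to 3.59) and all 4 light AL livers (3.33 to 3.62), against 10.33 to 10.90 in CR livers. Slc22a27 differed from light AL by 0.12 ± 0.17, from heavy AL by -1.34 ± 0.24 and from CR by -3.36 ± 0.24. The receptor gene Ntrk2 (-0.72 ± 0.19) and the steroidogenic enzyme Cyp17a1 (-0.51 ± 0.15) had the smallest p of the female-biased list against light AL.

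Interferon-induced genes lay above the light AL level in 25 of 27 cases, with a median of 0.19, which was 0.33 in mock and 0.08 in Wy livers. An unadjusted p under 0.05 was found for 3 (all genes, 2.30% above). The chemokine Cxcl10 was at 7.30 and 7.17 in INT mock and 6.57 and 6.60 in INT Wy livers, against 6.65 and 6.26 in light AL mock and 6.26 and 6.42 in light AL Wy livers (0.51 ± 0.13). The GTPases Gbp3 (0.34 ± 0.13), Irgm1 (0.20 ± 0.08) and Gbp2 (0.53 ± 0.24) followed. Against heavy AL the median of the list had the other sign (-0.33). All 7 MHC class II genes also lay above light AL, by 0.04 to 0.22, with the class II transactivator Ciita at 0.22 ± 0.10 and H2-Eb1 at 0.12 ± 0.20, but the median was 0.37 in mock and -0.15 in Wy livers. It was -0.04 without the high INT mock and -0.03 without the light C mock array. Against heavy AL 5 of the 7 were lower in INT (all genes, 5.49% lower), with a median of -0.94, H2-Eb1 by -1.05 ± 0.22. That count was 2 without the heavy C Wy or the heavy MF mock array and 3 without the low INT mock array. Of the T and NK cell markers, 3 of 4 tested lay above light AL (all genes, 50.2% above). Their summed level overlapped, at 7.52 to 8.19 log2 in INT and 7.51 to 7.89 in light AL livers. The part of these cells in the interferon and class II values was not tested.

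Heat shock chaperones had 3 of 12 genes above light AL at an unadjusted p under 0.05 (all genes, 2.30% above). Hspb1, a small heat shock protein, was at 9.17 and 8.51 in INT mock and 9.22 and 9.34 in INT Wy livers, against 8.01 and 8.19 in light AL mock and 8.44 and 9.14 in light AL Wy livers (0.61 ± 0.17). Hsph1 (0.30 ± 0.08) and Hsp90aa1 (0.20 ± 0.07) also separated within both treatments (all genes, 2.72% above), and Dnaja1 had a difference of 0.15 ± 0.08. The list median was 0.08. Detoxification genes had medians of -0.02 (NRF2 and glutathione, 19 genes) and -0.05 (CAR and PXR targets, 17 genes). First by p were the glutathione transferases Gstt3 (-0.47 ± 0.19) and Gstm6 (-0.23 ± 0.10) and, among CAR and PXR targets, Cyp2c55 (-0.52 ± 0.14). In the integrated stress response, Mthfd2 of mitochondrial folate metabolism was first (-0.27 ± 0.08), with a list median of -0.02.

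**Figure D4:**
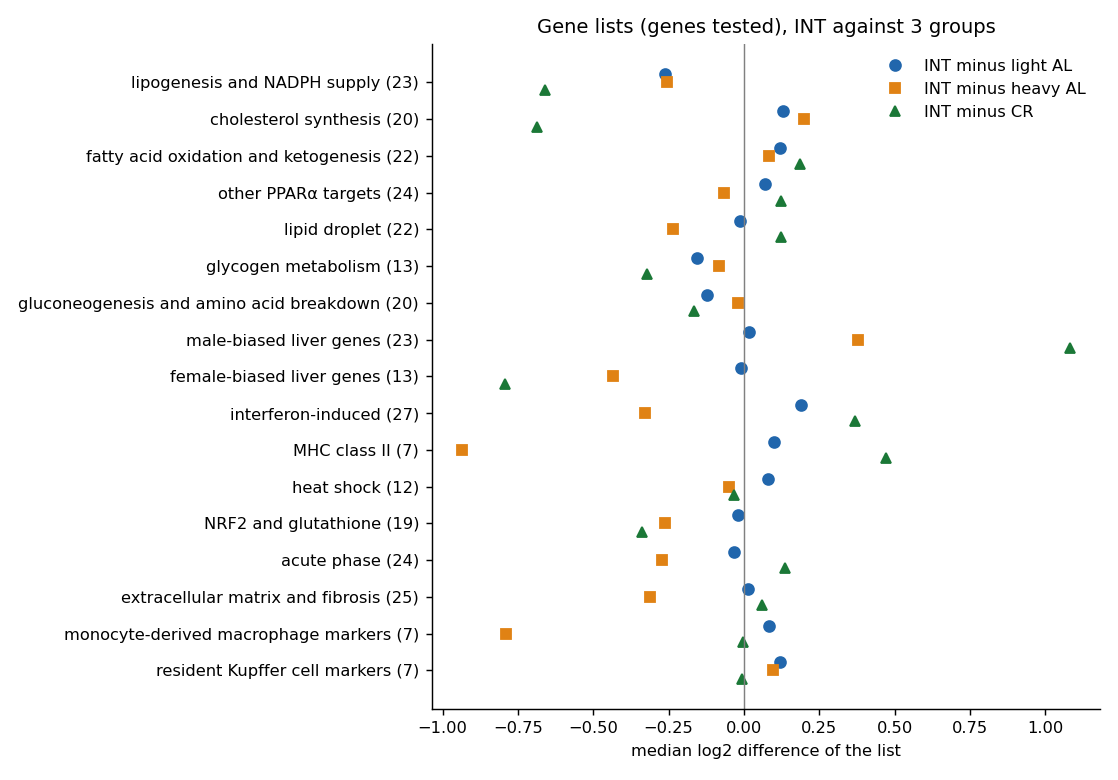
Median log2 difference of 17 gene lists (number of genes tested in brackets) for INT minus light AL, INT minus heavy AL and INT minus CR. The light AL medians lie between -0.26 and 0.19, while heavy AL medians reach -0.94 (MHC class II) and CR medians 1.08 (male-biased genes).

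Matrix and macrophage genes, which are raised in fatty livers with inflammation and scarring, lay near the light AL level, and none was called against it. Of 25 matrix genes 17 lay above and 8 below light AL, with a median of 0.02 and every 95% interval within 2-fold. The collagen chain Col6a2 had the smallest p (0.24 ± 0.08). Against heavy AL 9 of the 25 were lower in INT (all genes, 5.49% lower). Markers of monocyte-derived and lipid-associated macrophages (7 of 9 tested) had a median of 0.08 against light AL, and 4 of the 7 were lower in INT than in heavy AL livers (all genes, 5.49% lower). Gpnmb was at 4.51 to 4.65 in INT and 4.47 to 4.98 in light AL livers, against 5.74 to 7.87 in heavy AL livers (INT minus heavy AL -2.32 ± 0.33, adjusted p = 0.00146). Itgax (-1.11 ± 0.19), Trem2 (-0.79 ± 0.12) and Ccr2 (-0.99 ± 0.11) had the other calls against heavy AL, and Trem2 differed from light AL by 0.09 ± 0.10. Resident Kupffer cell markers (7 of 7 tested) had a median of 0.12 against light AL, and their summed level was 11.68 to 12.06 log2 in INT and 11.61 to 11.80 in light AL livers. Sinusoidal endothelium markers (7 of 7 tested) all lay above light AL or at its level, by 0.00 to 0.22 log2 (all genes, 50.2% above). Their summed level did not overlap, by a narrow margin (12.74 to 12.81 in INT, 12.64 to 12.72 in light AL livers), and was not tested. Of all single genes, 5.71% separated completely within both treatments. That share is for single genes within a treatment, a looser criterion than for a sum across treatments, for which no share was computed.

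The study's own panels of 4 genes each, for lipid droplets, inflammation and fibrosis, and macrophages, held no call between INT and light AL. Besides Cidea, the droplet regulator Cidec differed by 0.12 ± 0.36, Mogat1 of triglyceride synthesis by -0.27 ± 0.17 and the hormone Fgf21 by 0.11 ± 0.27. Against heavy AL Mogat1 was lower (-1.95 ± 0.21, adjusted p = 0.000169), and so was Cidec (-1.96 ± 0.52, adjusted p = 0.0291), a call lost without the heavy C mock, heavy MF mock, low INT mock or low INT Wy array (highest adjusted p = 0.0999). Cidec ran with treatment, at 8.33 and 6.68 in INT mock and 11.21 and 10.53 in INT Wy livers, against 7.66 and 6.64 in light AL mock and 10.68 and 11.27 in light AL Wy livers, and its groups overlapped.

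With treatment in the fit, Lcn2, Saa2 and Mt2 of the inflammation panel varied more from liver to liver than the other panel genes. Lcn2, an iron-binding acute phase protein, was at 9.51 (high) and 8.40 (low) in INT mock and 12.24 (high) and 8.41 (low) in INT Wy livers, against 9.98 and 8.84 in light AL mock and 10.84 and 11.98 in light AL Wy livers (-0.77 ± 0.71, interval -2.36 to 0.83). The low INT Wy liver was lowest of the Wy livers in Lcn2, Saa2 (7.42) and Mt2 (10.76). Saa2 had a difference of -0.63 ± 0.74, the metallothionein Mt2 of -0.11 ± 0.44 and the protease inhibitor Timp1 of 0.03 ± 0.11. For Lcn2, Saa2 and Mt2 the interval reached beyond 2-fold, so that a difference of that size was not excluded with these arrays. Without the low INT Wy array the differences were 0.06 (Lcn2), 0.30 (Saa2) and 0.42 (Mt2). Orm3, first by p among 24 acute phase genes, had a difference of -0.71 ± 0.44 against light AL and was lower in INT than in heavy AL (-3.40 ± 0.49, adjusted p = 0.00146). Timp1 was lower than in heavy AL as well (-1.04 ± 0.11, adjusted p = 0.000187).

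The macrophage panel lay close to light AL, with Ccl2 at 0.06 ± 0.08, Ccl3 at 0.27 ± 0.13, Adgre1 (F4/80) at 0.17 ± 0.17 and Cd68 at 0.05 ± 0.11. The low INT Wy liver had the highest values of the 8 livers in Ccl3 (5.83), Adgre1 (8.69) and Cd68 (8.71). Without it the differences were -0.03 for Adgre1 and -0.05 for Cd68. For Ccl3 the difference ran from 0.12 to 0.35 when 1 array was left out. Cd68 was called lower in INT than in heavy AL (-0.71 ± 0.18, adjusted p = 0.0255), a call that was lost on the arrays of the first code alone (adjusted p = 0.136) and without the heavy C mock, heavy MF mock, high INT Wy or low INT mock array (highest adjusted p = 0.0861).

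Splitting the light AL livers by diet gave 0 calls against light C and 0 against light MF (limma, INT with 4 and each diet with 2 arrays). At an unadjusted p under 0.05 there were 688 genes against light C (4.82%) and 396 against light MF (2.77%), and the lowest adjusted p was 0.153 and 0.536. Against light C, Got1 (-0.80 ± 0.10), Cabcoco1 (-0.73 ± 0.09), the Langerhans cell lectin Cd207 (-0.76 ± 0.10) and the organic anion transporter Slc17a4 (-0.73 ± 0.10) were lowest by p. Proca1 (0.82 ± 0.12), Pcp4l1 (1.04 ± 0.17), Golm2 (0.55 ± 0.09) and Med12l (0.71 ± 0.14) led the other side. Got1 was called against light C with trend and robust variance moderation (adjusted p = 0.0271).

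Against light MF, whose mice had the feed that INT mice ate in their last days, the leading genes were others, except for Got1 (-0.47 ± 0.10), Dgkh (0.51 ± 0.11) and Slfn8 (0.41 ± 0.09). Ifi208, an interferon-inducible gene, was at 5.64 to 5.72 in the 4 INT livers, against 4.89 and 4.82 in light MF and 5.42 and 5.79 in light C livers (INT minus light MF 0.81 ± 0.11). The repressor Bcl6 was at 9.40 and 9.34 in INT mock and 7.57 and 7.76 in INT Wy livers, against 7.65 and 6.72 in light MF mock and Wy livers (1.34 ± 0.25). Light C livers had 9.08 in mock and 8.69 in Wy mice. Light MF thus lay below both other groups in each treatment. INT livers lay near light C in mock mice, but between light MF and light C in Wy mice. Dsg1c (-0.90 ± 0.17), Ucn3 (-0.40 ± 0.08) and Prr27 (-0.38 ± 0.08) lay below light MF. All INT values of Ucn3 were under the intensity threshold of the filter.

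Within INT, livers of high and low body weight class differed in 1 called gene, Scara5, a scavenger receptor that takes up ferritin (0.00701% of genes, with 1082 or 7.58% at an unadjusted p under 0.05). Scara5 (transcript cluster 10416023) was at 7.14 and 7.37 in high INT mock and Wy livers and 5.38 and 5.10 in low INT livers, a difference of 2.02 ± 0.15 (adjusted p = 0.0121 with limma). Light AL livers lay between them, at 6.38 and 6.64 in mock and 6.10 and 6.40 in Wy mice. The difference rests on 2 arrays against 2 and cannot be told apart from the array code. The call was lost in the fit of all 16 arrays (adjusted p = 0.309), without the low INT Wy array (0.142) and without either light C array (0.0508). Cyp2b10, a target of the xenobiotic receptor CAR, followed at 5.53 and 5.90 in high INT and 4.09 and 4.05 in low INT livers, against 4.88 and 5.22 in light AL mock and 4.67 and 5.66 in light AL Wy livers (1.65 ± 0.17 for high minus low, adjusted p = 0.0786, and 0.0263 without either light MF array). Both low INT values of Cyp2b10 were under the intensity threshold of the filter, so its differences with low INT livers were not fully measured. The inhibitors of differentiation Id1 (0.87 ± 0.13) and Id3 (0.98 ± 0.15) lay higher in high INT livers. Asparagine synthetase Asns (-1.06 ± 0.13), the sorting receptor Sort1 (-0.89 ± 0.12), the clock repressor Bhlhe41 (-0.73 ± 0.10) and Fdft1 of cholesterol synthesis (-0.90 ± 0.14) lay lower.

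Each weight class of INT was also set against all light AL livers. Low INT livers, which share array code and weight class label with light AL, gave 0 calls (764 genes or 5.35% at an unadjusted p under 0.05), and high INT livers 0 calls (940 or 6.58%). In low INT livers Csad had the lowest adjusted p, 0.0861 (1.71 ± 0.16). Both its values, 10.75 and 10.95, exceeded all light AL values, and it was called without the low INT Wy array (2.04, adjusted p = 0.0182). Without either high INT array Scara5 and Atp6v0d2 were called (adjusted p = 0.0307 for both). Scara5 (-1.14 ± 0.13), Med12l (0.67 ± 0.09), Cyp7b1 (0.62 ± 0.08), Cyp2b10 (-1.04 ± 0.14), Unc13b (0.59 ± 0.09), Atp6v0d2 (-1.40 ± 0.21) and the water channel Aqp8 (-1.05 ± 0.17) were next. In high INT livers Scara5 had the opposite sign (0.87 ± 0.13). The genes after it were Asic5 (0.69 ± 0.10), Ccdc71l (0.53 ± 0.09) and Rpp25l (0.46 ± 0.09) above, and Rab5b (-0.59 ± 0.09), Got1 (-0.67 ± 0.10), Blnk (-0.60 ± 0.09) and Cabcoco1 (-0.59 ± 0.09) below light AL.

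**Figure D5:**
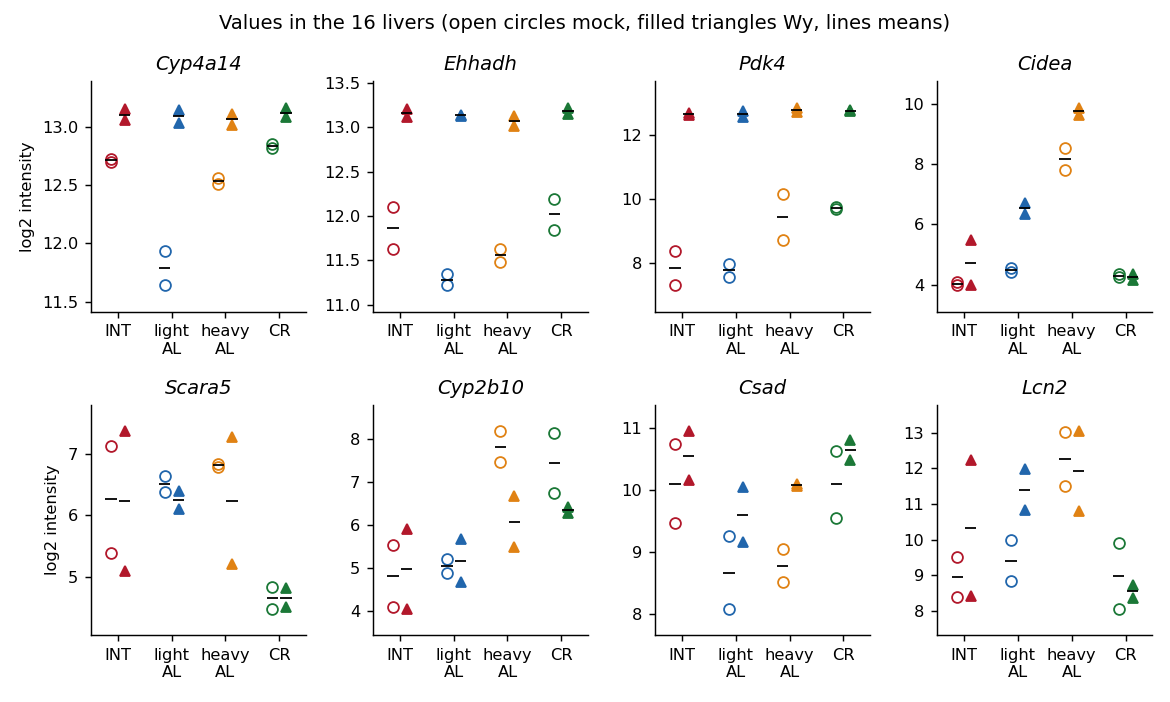
Log2 intensity of 8 genes in the 16 livers by group (INT, light AL, heavy AL, CR), with open circles for mock, filled triangles for Wy and lines for means of 2 arrays. Scara5 and Cyp2b10 split INT livers, Cidea is highest in heavy AL livers, and INT and light AL livers of Cyp4a14 separate in mock but not in Wy mice.

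The last comparison asks whether INT and light AL livers responded alike to Wy. Within INT 1375 genes were called between Wy and mock (9.63%), with 525 higher (3.68%) and 850 lower (5.95%), and within light AL 1149 (8.05%), with 564 higher (3.95%) and 585 lower (4.10%), each with 2 Wy and 2 mock arrays. After centring on array medians the INT split was 692 higher and 614 lower. The counts varied with single arrays. The INT count was 534 without the high INT Wy and 370 without the low INT mock array, and the light AL count was 478 and 502 without the light C mock and Wy arrays, and 238 and 211 without the light MF mock and Wy arrays. The test of the difference between both responses called 0 genes, with 706 (4.95%) at an unadjusted p under 0.05 and a lowest adjusted p of 0.960. The interval of the difference lay within 2-fold for 13530 genes (94.8%).

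Pdk4, which holds back glucose oxidation, rose by 4.78 ± 0.30 log2 in INT Wy livers and by 4.86 ± 0.30 in light AL Wy livers. It was at 8.39 and 7.32 in INT mock and 12.68 and 12.60 in INT Wy livers, against 7.99 and 7.58 in light AL mock and 12.55 and 12.73 in light AL Wy livers, and over both treatments INT minus light AL was 0.04 ± 0.20. Ehhadh rose by 1.30 ± 0.15 in INT and 1.86 ± 0.15 in light AL livers. It was at 12.10 and 11.63 in INT mock and 13.12 and 13.21 in INT Wy livers, against 11.35 and 11.22 in light AL mock and 13.13 and 13.14 in light AL Wy livers. Cyp4a14 rose in light AL livers (1.30 ± 0.12, adjusted p = 0.00128 with limma), and in INT livers the difference was 0.39 ± 0.12 (adjusted p = 0.0715). The difference of the responses was -0.91 ± 0.17 for Cyp4a14 and -0.55 ± 0.21 for Ehhadh, with adjusted p = 0.960 for both. The Wy values of both genes lay near the highest value on any array (13.7). Whether the upper end of the scale narrowed these differences was not tested. Of fatty acid oxidation genes 13 of 22 rose in INT and 14 of 22 in light AL livers, and of other PPARα targets 12 of 24 in INT and 17 of 24 in light AL livers (all genes, 3.68% higher in INT and 3.95% in light AL livers). The median difference of the responses (INT minus light AL) was -0.15 and -0.30 for these lists. A count that is larger in 1 group does not show that the responses differ.

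By p, Slc8a1 and Slc22a26 were among the first genes in the difference of the responses. Slc8a1, a sodium-calcium exchanger, was at 8.45 and 7.67 in INT mock and 6.62 and 5.99 in INT Wy livers, against 7.33 and 6.65 in light AL mock and 7.84 and 7.80 in light AL Wy livers (-2.58 ± 0.44). Slc22a26, an organic ion transporter, was at 5.91 and 6.21 in INT mock and 5.10 and 5.30 in INT Wy livers, against 5.30 and 5.42 in light AL mock and 5.66 and 5.79 in light AL Wy livers (-1.23 ± 0.18). For both genes Wy lay below mock in INT and above mock in light AL livers. Pyroxd2 (-0.79 ± 0.13) and Csrp3, a muscle LIM protein (-1.03 ± 0.17), had differences of the same sign, and Gulp1 (0.80 ± 0.16), the non-coding RNA Snhg15 (0.78 ± 0.16), the serine synthesis enzyme Psat1 (0.75 ± 0.16) and Borcs6 (0.66 ± 0.15) the opposite one. For Cidea the Wy difference was 0.70 ± 0.38 in INT and 2.04 ± 0.38 in light AL livers, where it passed the test (adjusted p = 0.0161 with limma) with all arrays but not without any 1 of the light AL arrays, and the difference of the responses was -1.33 ± 0.54. In INT the Wy difference rested on the high INT Wy liver. Without that array it was -0.03, and without the low INT Wy array it was 1.44. Both INT mock values and the low INT Wy value lay under the intensity threshold of the filter. The INT response of Cidea, and its difference from the light AL response, were therefore not fully measured.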

How the data were processed

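RNA from 16 livers had been hybridised to Affymetrix Mouse Gene 1.1 ST arrays, 1 mouse per array. Log2 intensities were deposited, which the authors had obtained with RMA, a method that subtracts background, forces all arrays to a common distribution and combines the probes of a cluster. Its version was not given in the sources used. Of 35556 transcript clusters, 21218 with exactly 1 gene in the platform annotation were kept, 1881 had several and 12457 none. For 1386 genes with more than 1 cluster, the one of highest mean was used, leaving 18820 genes. As in the methods of the study, a gene was tested where 5 or more arrays exceeded an intensity of 20 (log2 4.32), which kept 14275 genes and left out 4545.

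Groups came from the diet and weight class labels. Differences were fitted with limma 3.58.1 in R 4.3.3 (lmFit, eBayes, two-sided), with treatment as a term, on the 8 INT and light AL arrays, or on all 16 arrays for INT against heavy AL and CR. p-values were adjusted by Benjamini-Hochberg over the tested genes. Intervals are 95% intervals of the fit, and the number of arrays limits the precision. The procedure was tested on simulated data.

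The groups, 48 gene lists (727 genes, 615 tested, 25 below the filter, 87 not analysed here) and the naming rule were chosen with earlier results of these data known. The rule takes the 8 smallest p in each direction for the main comparison, since no gene was called, 4 in each direction for the others, up to 4 per list, and the study's panel genes, skipping predicted genes and antigen receptor segments (1 skipped). Chrna4 was named after its values were seen. Mock and Wy mice had been matched by weight class within a diet. These pairs are nested in the groups, so the pair entered only as a random block (consensus correlation -0.06).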

Additional observations from a re-analysis of the deposited data

Results flagged for a closer look

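In groups of 4 livers, after removal of each treatment's mean, 1 liver stood apart from the other 3 in 10 of 238 groups examined. In INT these were the low INT Wy liver, low in Cpm (4.58) and Cidea (4.00), and the high INT mock liver, low in Cfap77 (4.66) and high in Ehhadh (12.1). In light AL these were the light MF mock liver, low in Cyp4a31 (10.6), Dgat1 (9.16) and Gstt3 (9.23) and high in Gstp1 (12.8), the light MF Wy liver, low in Gbe1 (10.9), and the light C mock liver, low in Irgm1 (9.15). For Cidea the other INT Wy liver was at 5.47, and 3 INT values were under the intensity threshold of the filter.

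Scara5 differed between high and low INT livers by 2.02 log2, with light AL livers between them, so that its difference from light AL had opposite signs in both weight classes. The high INT livers are those whose names begin with another array code than the rest, and weight class and array code cannot be told apart.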

How the results depend on the processing

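Over both treatments, INT minus light AL gave 0 calls under every alternative but those that left out 1 array (0 to 1 calls), and the count of genes with an interval within 2-fold stayed within 1.5 times of 14187 in all. Within mock livers there was 1 call with trend and robust moderation (adjusted p = 0.0349), and within Wy livers there were 5 calls without the high INT Wy array (lowest adjusted p = 0.0143). With the weight-matched pair as a random replicate block there were 0 calls too, and 786 genes at an unadjusted p under 0.05, against 689 without the block. The alternatives for the comparisons with heavy AL and CR and for Wy within a group, and the fits without 1 array outside INT minus light AL, were chosen after seeing the data. With trend and robust moderation the counts were 1 against light C, 3 for low INT minus light AL and 2 for high minus low INT, where the fit of all 16 arrays gave 0. The genes then called were Got1 against light C, Csad, Scara5 and Cyp7b1 in low INT, and Cyp2b10 beside Scara5 in high minus low INT. Without 1 array the counts ran from 0 to 1 against light C, against light MF and for high INT minus light AL, from 0 to 3 for low INT minus light AL and from 0 to 5 for high minus low INT. They ran from 619 to 1435 against heavy AL, from 370 to 1525 for Wy in INT and from 211 to 1353 for Wy in light AL. On the arrays of the first code alone there were 905 calls against heavy AL and 827 against CR. The cause of these shifts was not tested.

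Some small differences changed sign. With mock arrays only, the difference was -0.072 for Cyp51, 0.056 for Plin3, 0.039 for Prodh, 0.048 for Gpnmb, 0.12 for Mogat1, 0.079 for Mt2, -0.10 for Adgre1 and 0.075 for Ppara. With Wy arrays only, it was -0.039 for Slc27a1, -0.012 for Gbp2, -0.26 for H2-Eb1, -0.11 for Cidec, -0.21 for Fgf21, -0.11 for Timp1 and -0.00052 for Pdk4. With the array code as a term, and on the arrays of the first code only, it was -0.46 for Cidec and -0.25 for Pdk4. Without 1 array it ran from -0.035 to 0.29 for Adgre1, -0.0050 to 0.12 for Ccl2, -0.051 to 0.16 for Cd68, -0.25 to 0.41 for Cidec, -0.18 to 0.36 for Fgf21, -0.042 to 0.30 for H2-Eb1, -1.47 to 0.061 for Lcn2, -0.56 to 0.42 for Mt2, -0.18 to 0.24 for Pdk4, -1.38 to 0.30 for Saa2 and -0.038 to 0.15 for Timp1. The Wy difference of Cidea in INT ran from -0.029 to 1.44, and the difference of the Pdk4 responses from -0.60 to 0.46. No other named difference changed sign in the alternatives run. Some that kept their sign still depended on 1 array for their size. Without 1 array INT minus light AL ran from -1.29 to -0.70 for Cidea, -1.07 to -0.29 for Orm3 and -1.83 to -0.82 for Chrna4. It ran from 0.26 to 0.68 for Gbp2, 0.23 to 0.62 for Slc27a1, 0.15 to 0.38 for Ehhadh and -0.43 to -0.19 for Oat.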

Other observations

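Other parts of liver metabolism lay close to the light AL level, with 0 genes called by limma in any list. Of 24 genes of bile acid synthesis and transport 10 lay above and 14 below it (median -0.03), of 17 genes of lipoprotein assembly 9 and 8 (0.0047), of 10 genes of sterol efflux 2 and 8 (-0.06), and of 31 respiratory chain genes 10 and 21 (-0.02). Amino acid transporters lay below it in 10 of 13 cases (median -0.07), 2 of them at an unadjusted p under 0.05 (all genes, 2.53% below), and so did genes of pericentral hepatocytes, with 10 of 13 (-0.06, also 2). Periportal hepatocyte genes had a median of -0.01 (9 genes), growth hormone signalling 0.02 (17), insulin and fasting signalling -0.01 (20), secreted hormones -0.07 (15), and iron and haem genes -0.0050 (15).

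Chaperones of the endoplasmic reticulum lay below the light AL level in 16 of 19 cases, with a median of -0.04 and none at an unadjusted p under 0.05. Clock genes had a median of -0.05 (17 genes), cell cycle genes -0.04 (25) and p53 targets 0.05 (12). Against heavy AL, 5 of the 25 cell cycle genes were lower in INT (median -0.34, all genes 5.49% lower). Among markers of other cells, the summed level of stellate cell markers was 12.37 to 12.56 log2 in INT and 12.40 to 12.54 in light AL livers (7 of 7 tested), that of cholangiocyte markers 7.92 to 8.17 in INT and 7.90 to 8.32 in light AL livers (4 of 6), and that of B and plasma cell markers 7.38 to 8.24 in INT and 7.30 to 8.31 in light AL livers (4 of 6). Neutrophil markers (2 of 6 tested) summed to 5.55 to 6.02 in INT and 5.60 to 5.80 in light AL livers, and adipocyte markers (3 of 6) to 13.00 to 13.11 in INT and 12.96 to 13.11 in light AL livers. The adipocyte markers tested were Car3, Plin1 and Retn, while Adipoq and Lep lay below the filter. Their sum is therefore not read as adipocyte content. Pancreas markers (3 of 5) summed to 6.57 to 6.79 in INT and 6.59 to 6.69 in light AL livers, muscle markers (3 of 5) to 6.70 to 7.04 in INT and 6.90 to 6.99 in light AL livers, and the erythroid marker Alas2 (1 of 4) was at 9.51 to 10.01 in INT and 9.74 to 10.04 in light AL livers.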
